A study of Homo sapiens with 6 samples.

Results

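Fatty acid oxidation and ketogenesis were examined in PLC/PRF5 (PLC/PRF/5) cells, which were established from a hepatocellular carcinoma of a human liver, through 38 genes listed by symbol: those of mitochondrial and peroxisomal beta-oxidation, of acyl-CoA handling, of ketone body formation and of the PPARα axis. The list was drawn up by function, with no measured value in its rule, but with earlier results of these data known. Its symbols were joined to the Ensembl identifiers of the count files. All 38 were among the 60675 genes counted, and 37 of them were among the 18075 genes that passed the filter on low counts and were tested. The one left out was FGF21, the fasting hormone of the liver, which had between 0 and 2 reads in every library.

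The data are 3 RNA-seq libraries of control cells and 3 of cells with MTR4 knockdown (MTR4 KD), all grown in DMEM with serum. MTR4 is a nuclear RNA helicase that feeds RNA to the exosome for decay or trimming. The labels name the conditions only as control and MTR4 KD. The methods of the study describe both a stable and a doxycycline-inducible lentiviral shRNA. Its results state that RNA-seq compared cells before and after the knockdown was induced. On that reading only MTR4 KD cells received doxycycline, and effects of the drug cannot be told apart from those of the knockdown. No library from doxycycline-treated cells with a scramble shRNA was analysed here. All libraries are from 1 cell line, and nothing states that replicates came from separate cultures, so p-values measure the spread between these libraries only, which may be technical.

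Beta-oxidation shortens fatty acids by cycles of dehydrogenation, hydration, a second dehydrogenation and thiolysis, each of which releases acetyl-CoA. Long chains enter mitochondria as carnitine esters, very long chains are first shortened in peroxisomes, and hepatocytes turn surplus acetyl-CoA into the ketone bodies acetoacetate and 3-hydroxybutyrate. In liver, the nuclear receptor PPARα, with its coactivator PGC-1α, switches on many of these genes during fasting. The question behind the gene list was whether transcripts of oxidation are higher where those of glycolysis are lower.

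RefSeq promoter windows, each running from 250 bases before to 50 bases after a transcription start on GRCh38.p14, were found for 32 of the 38 genes (52 windows). DECR1, DECR2, ETFDH, EHHADH, ACAA1 and ACOT1 had none. The upstream parts of windows of the called genes BDH1, ACSL5 and ACSL3 are shown because these genes passed the test below, and that of CREB3L3 because it holds the sole paired receptor site found among the members. The sequences lie at chr3:197573344-197573593 on the minus strand (BDH1), at chr10:112375018-112375267 (ACSL5), chr2:222860786-222861035 (ACSL3) and chr19:4153381-4153630 (CREB3L3) on the plus strand, each ending at the base before a transcription start. For ACSL5 this start lies inside the gene, whose range begins at 112374116. Capitals mark matches to AGGTCA, the half-site of nuclear receptors, or to 2 copies of AGGNCA spaced by 1 base, the layout that PPARα and RXR bind as a pair.
BDH1: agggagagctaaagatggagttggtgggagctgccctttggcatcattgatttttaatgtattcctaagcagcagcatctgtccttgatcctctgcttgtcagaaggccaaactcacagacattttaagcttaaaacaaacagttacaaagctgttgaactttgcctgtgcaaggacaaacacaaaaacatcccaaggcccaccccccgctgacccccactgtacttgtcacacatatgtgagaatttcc
ACSL5: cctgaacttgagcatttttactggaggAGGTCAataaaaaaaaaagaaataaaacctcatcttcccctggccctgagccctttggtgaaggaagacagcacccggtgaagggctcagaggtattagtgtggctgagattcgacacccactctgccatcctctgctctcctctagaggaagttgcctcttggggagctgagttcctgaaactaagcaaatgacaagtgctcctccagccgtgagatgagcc
ACSL3: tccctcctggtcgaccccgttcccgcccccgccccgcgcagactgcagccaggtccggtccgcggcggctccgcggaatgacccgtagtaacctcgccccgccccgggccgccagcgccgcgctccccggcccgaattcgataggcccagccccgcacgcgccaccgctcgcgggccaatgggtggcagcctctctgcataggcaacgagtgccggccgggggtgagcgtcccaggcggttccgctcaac
CREB3L3: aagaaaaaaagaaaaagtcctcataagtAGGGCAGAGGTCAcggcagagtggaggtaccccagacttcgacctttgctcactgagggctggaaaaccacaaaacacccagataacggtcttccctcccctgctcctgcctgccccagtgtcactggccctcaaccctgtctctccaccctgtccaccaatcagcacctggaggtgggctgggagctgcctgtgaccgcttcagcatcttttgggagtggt

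The paired site of CREB3L3 covered chr19:4153409-4153421, from 222 to 210 bases before the start. Over both strands, this pair was found in 1 of 52 member windows (1.92%) and in 0.31% of all 35116 windows. The single half-site AGGTCA, which can be part of such a pair, was in windows of ACSL5, CREB3L3 and FABP1, which is 5.77% of member windows against 13.8% of all windows. The E-box CACGTG was in 1 member window, of PPARGC1A (1.92% against 7.26%), and the cyclic AMP element TGACGTCA was in 2 windows of ACOX3 (3.85% against 1.85%). No window of BDH1 or ACSL3 held any of these 4 motifs. Such matches describe letters in a window and no binding was measured.

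Reads assigned to genes numbered from 60686786 to 72708682 per library. MTR4 itself (MTREX) was measured at 72.2, 87.4 and 74.4 CPM (reads of a gene relative to the scaled size of its library) in control replicates 1 to 3 and at 44.6, 48.8 and 44.1 CPM in MTR4 KD replicates 1 to 3, a fall of 0.77 on the log2 scale (SE 0.0897, edgeR's quasi-likelihood test, adjusted p = 0.00641). Its level thus fell by 41.2%. The libraries fell into a pair of sets by the share of reads with no unique alignment: control replicates 1 and 3 and MTR4 KD replicate 3 (34.7% to 37.5%), and control replicate 2 and MTR4 KD replicates 1 and 2 (14.8% to 18.2%). What the sets stem from is not stated in the sources used here. Hepatocyte markers (10 of 10 counted) summed to between 24145.6 and 25587.3 CPM in control and 24225.9 and 26030.1 CPM in MTR4 KD libraries, whereas fibroblast markers reached at most 14.5, immune markers 33.5, endothelial markers 0.538 and adipocyte markers 12.7 CPM in any library, and no marker was at 0 in every library. The 3 epithelial markers summed to 1772 to 2007 CPM in control and 1585 to 1614 CPM in MTR4 KD libraries. By the test used below, 3 of the 10 hepatocyte markers were raised (30%, against 1.48% of all tested genes). Of the 3 epithelial markers 1 was lowered (33.3%, against 2.12% of all tested genes). The hepatocyte markers were mixed, 6 with a higher and 4 with a lower mean in MTR4 KD. The calls of ALB and of KRT18, the epithelial one, were lost with total counts in place of TMM (adjusted p = 0.0501 and 0.0545) and without the filter (0.0986 and 0.095). Their part in the results on oxidation was not tested.

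Of the 37 genes tested, BDH1 and EHHADH rose and the acyl-CoA synthetases ACSL3 and ACSL5 fell in MTR4 KD cells, and the other 33 did not pass the test (edgeR's quasi-likelihood test, Benjamini-Hochberg adjusted p under 0.05). The called genes made up 10.8% of the members, where 3.6% of all tested genes were called. By direction this was 5.41% raised and 5.41% lowered, where 1.48% of all tested genes were raised and 2.12% lowered. Only BDH1 also passed a fold change of 2, which 0.83% of all genes passed together with the adjusted p.

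Differences were small for most members. The fitted mean was higher in MTR4 KD for 29 of the 37 genes and lower for 8, against 9234 and 8841 of all 18075 tested genes. The median log2 fold change was 0.13 where that of all tested genes was 0.01, and 22 members differed by less than 1.2-fold in either direction. In 11 members (29.7%) every MTR4 KD library lay above every control library, against 12.1% of all tested genes. In 4 members (10.8%) every MTR4 KD library lay below, against 12.6% of all tested genes. The median over the 37 genes, taken in each library against the control mean, was -0.03, 0.09 and -0.04 in control replicates 1 to 3 and 0.16, 0.21 and 0.04 in MTR4 KD replicates 1 to 3. Control replicate 2 thus lay above MTR4 KD replicate 3, so that the groups overlapped, and the order followed the library sets within each condition.

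**Figure D1:**
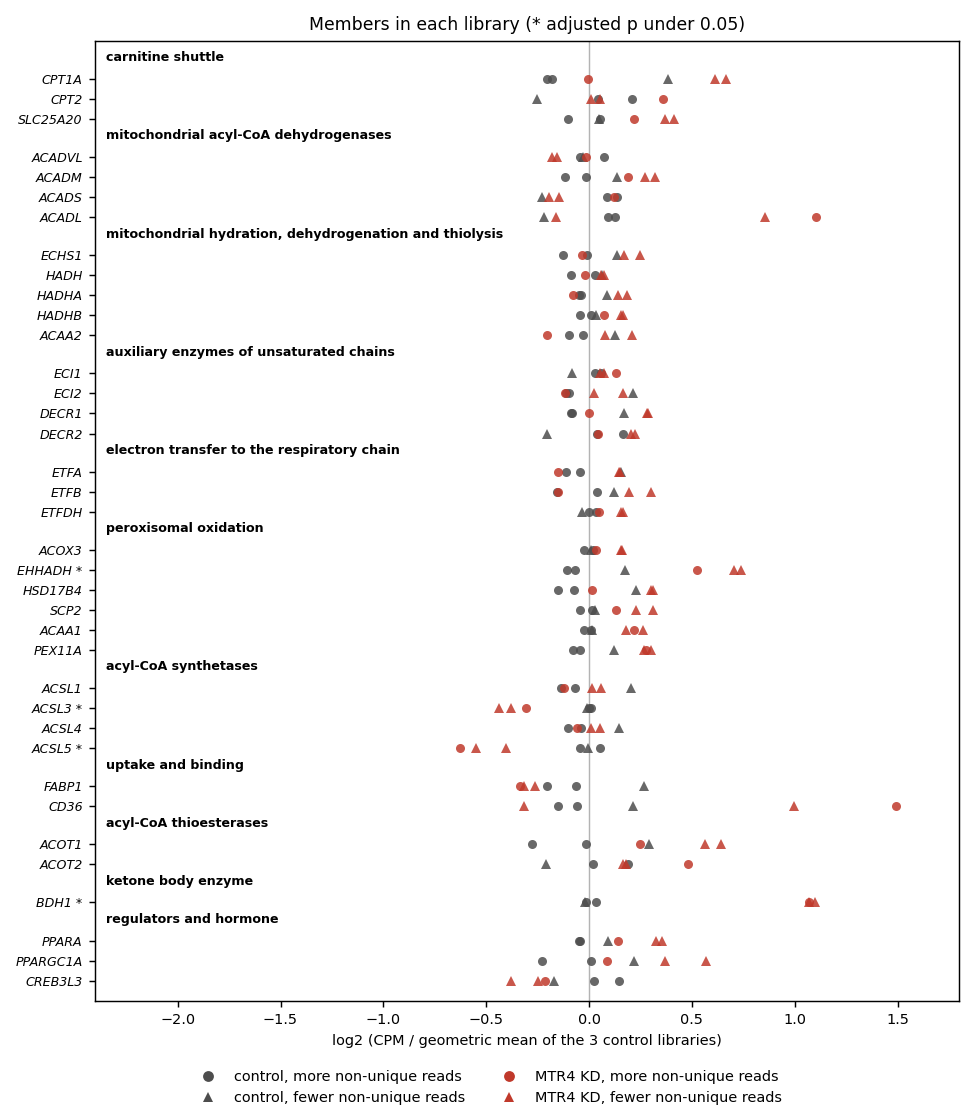
Expression of the 37 tested genes in each library, grouped by role, as log2 of CPM over the geometric mean of the 3 control libraries (horizontal axis), with grey for control, red for MTR4 KD, circles for libraries with more and triangles for those with fewer non-unique reads. BDH1 and EHHADH stand to the right in all 3 MTR4 KD libraries and ACSL3 and ACSL5 to the left (asterisks, adjusted p under 0.05), while most other genes lie near 0.

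Per length of their canonical transcript, the members spanned several orders of magnitude in control cells. FABP1, the fatty acid binding protein of hepatocytes, was highest with 249.9 CPM per kilobase, followed by ACADVL with 201 and HADHA with 121. At the low end, ACADL and CD36 had 0.109 and 0.0444 CPM per kilobase, from at most 36 and 35 reads in any library. BDH1, the gene that changed most among those called, was at 3.30 CPM per kilobase in control and 6.97 in MTR4 KD cells, and PPARGC1A at 1.97 and 2.50. ACADVL and HADHA, but not ACADL, were thus above BDH1, the one ketone body enzyme of the list.

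**Figure D2:**
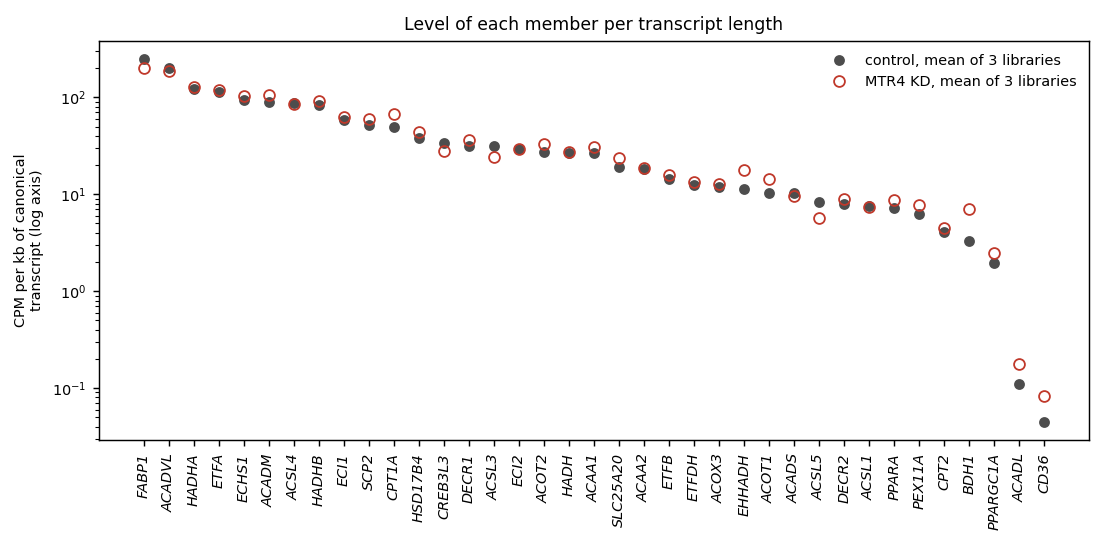
Mean level of the 37 tested genes per transcript length (CPM per kilobase, log axis) in 3 control (filled grey) and 3 MTR4 KD libraries (open red), ordered by the control level. Levels run from 249.9 for FABP1 to 0.0444 for CD36 in control, and control and MTR4 KD symbols nearly coincide for most genes.

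BDH1 showed the clearest rise. Its product, 3-hydroxybutyrate dehydrogenase of the mitochondrial matrix, interconverts acetoacetate and 3-hydroxybutyrate in the last step of ketogenesis, and the gene lies on chromosome 3 (197509783 to 197573343, GRCh38). BDH1 was measured at 11.5, 11.5 and 11.9 CPM in the control libraries and at 24.9, 24.4 and 24.4 CPM in the MTR4 KD libraries. The groups were far apart and the libraries within each nearly equal. The rise was 2.11-fold (log2 fold change 1.08, SE 0.068, adjusted p = 0.000588). It was 1.06 on the log2 scale among the libraries with more and 1.10 among those with fewer non-unique reads, and the adjusted p stayed between 0.0017 and 0.00926 when each library in turn was left out.

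**Figure D3:**
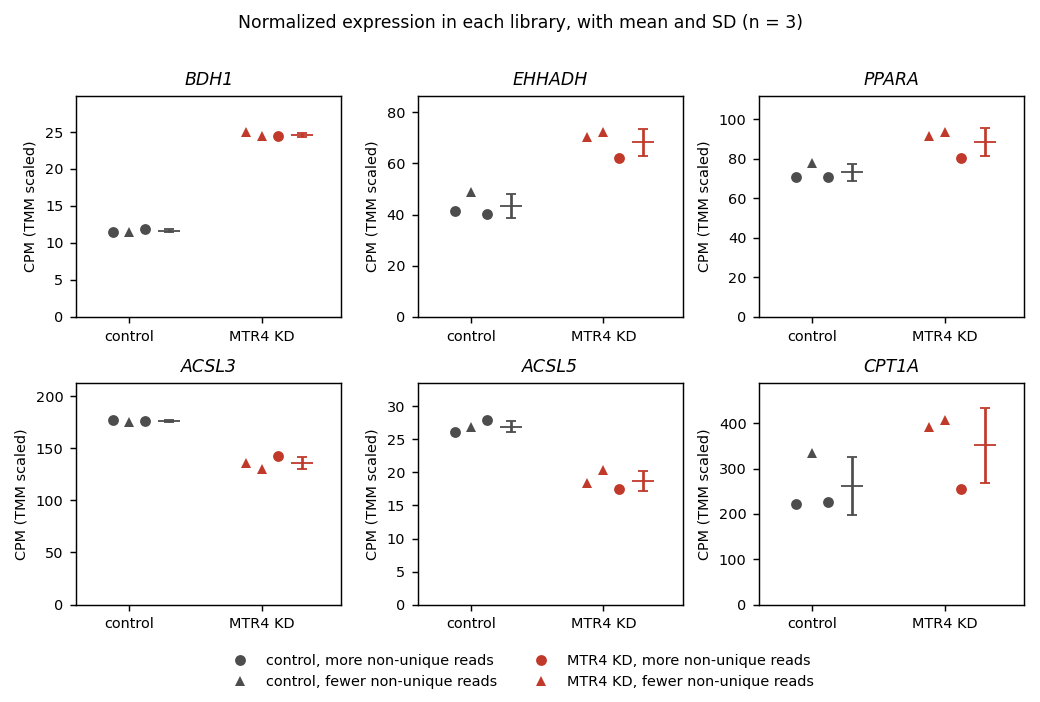
CPM of 6 members in each library, with the mean and SD of 3 libraries beside the points (vertical axes from 0, circles for libraries with more and triangles for those with fewer non-unique reads). BDH1, EHHADH and PPARA are higher and ACSL3 and ACSL5 lower in all MTR4 KD libraries, and for CPT1A the triangles lie above the circles in both conditions.

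The 6 genes grouped under peroxisomal oxidation leaned in 1 direction. All had a higher mean in MTR4 KD, with a median log2 fold change of 0.22. In 5 of them every MTR4 KD library lay above every control library, against 12.1% of all tested genes. The test called 1 raised (16.7%), against 1.48% of all tested genes. The lean holds for this grouping: DECR2 and ECI2, placed with the auxiliary enzymes below, had overlapping groups (0.15 and 0.02). EHHADH, the bifunctional enzyme that hydrates and dehydrogenates chains in the peroxisome (chromosome 3, 185190624 to 185254049), was at 41.2, 48.7 and 40.2 CPM in control and at 70.4, 72.1 and 62.2 CPM in MTR4 KD libraries. The lowest MTR4 KD value was above the highest control value. EHHADH rose 1.57-fold (log2 fold change 0.65, SE 0.0964, adjusted p = 0.0152), with 0.61 and 0.55 within the sets of more and fewer non-unique reads. The call was lost without control replicate 1 (adjusted p = 0.0921), control replicate 3 (0.0785), MTR4 KD replicate 1 (0.0879) or MTR4 KD replicate 2 (0.0893), and kept without either remaining library.

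Of the other genes grouped under peroxisomal oxidation, 4 had groups that did not overlap but did not pass the test. ACAA1, the thiolase of peroxisomes, was at 44.2, 45.4 and 45.2 CPM in control and 50.9, 53.8 and 52.2 CPM in MTR4 KD libraries (log2 fold change 0.22, adjusted p = 0.088). SCP2, whose long form is a thiolase for branched chains, was at 143.6, 145.1 and 137.9 CPM against 176.2, 166.5 and 155.8 CPM (0.22, adjusted p = 0.128). PEX11A, a factor of peroxisome division, was at 16.2, 18.6 and 16.6 CPM against 20.5, 21.1 and 20.7 CPM (0.28, adjusted p = 0.121). No library of these 3 genes crossed over, and for SCP2 MTR4 KD replicate 3 lay closest to the controls. ACOX3, an acyl-CoA oxidase that begins the peroxisomal cycle, was at 33.6, 34.4 and 34.7 CPM against 38.0, 38.2 and 35.1 CPM, where MTR4 KD replicate 3 came close to the controls (0.12, adjusted p = 0.377). HSD17B4, the D-bifunctional enzyme, had overlapping groups (0.20, adjusted p = 0.431). Exons of other genes cover 21.2% of the exonic bases of ACAA1 and 20.8% of those of SCP2, and the strand setting of the counting is not given in the sources used here.

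Of the 3 genes of the carnitine shuttle none was called by edgeR with condition alone, where 1 had an unadjusted p under 0.05 and DESeq2 called 1 and limma-voom 0. CPT1A, the outer membrane transferase that commits long chains to mitochondrial oxidation, was at 222.4, 334.3 and 226.6 CPM in control and 391.2, 406.8 and 255.2 CPM in MTR4 KD libraries. The groups overlapped, because control replicate 2 exceeded MTR4 KD replicate 3. The log2 fold change of 0.43 had an SE of 0.218 (adjusted p = 0.346). The libraries with fewer non-unique reads were above the others by 0.57 in control and 0.64 in MTR4 KD cells on the log2 scale, and the difference between conditions within sets was 0.18 (more) and 0.25 (fewer). Thus CPT1A differed more between library sets than between conditions.

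SLC25A20, the carnitine and acylcarnitine translocase of the inner membrane, was at 34.9, 34.8 and 31.3 CPM in control and 44.8, 43.4 and 39.2 CPM in MTR4 KD libraries. All MTR4 KD values were higher, yet the gene did not pass the test (log2 fold change 0.33, SE 0.0789, adjusted p = 0.074). It did so with DESeq2's Wald test (adjusted p = 0.0131) and without MTR4 KD replicate 3 (0.0477). CPT2, which releases the acyl-CoA in the matrix, was at 12.7, 9.27 and 11.4 CPM against 11.1, 11.5 and 14.1 CPM, and the groups overlapped (0.14, adjusted p = 0.67).

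Among the mitochondrial acyl-CoA dehydrogenases, which take the first step for chains of different length, none of the 4 was called by edgeR with condition alone, DESeq2 or limma-voom (1 with an unadjusted p under 0.05 in edgeR). ACADM, for medium chains, was at 199.4, 221.3 and 185.9 CPM in control and 251.5, 243.5 and 229.6 CPM in MTR4 KD libraries. These groups did not overlap (log2 fold change 0.26, SE 0.0794, adjusted p = 0.144). ACADVL, the enzyme for very long chains, had a log2 fold change of -0.11 and ACADS, for short chains, of -0.08, with overlapping groups and adjusted p = 0.424 and 0.806. For ACADL the libraries held 15 to 36 reads, and its value of 0.68 (adjusted p = 0.403) rests on those.

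The enzymes of hydration, dehydrogenation and thiolysis were nearly level. Their log2 fold changes lay between 0.03 and 0.13 and none of the 5 was called by edgeR with condition alone, DESeq2 or limma-voom or had an unadjusted p under 0.05 in edgeR. HADHB, the thiolase subunit of the trifunctional protein, was at 168.6, 171.3 and 162.3 CPM in control and 187.5, 186.1 and 175.8 CPM in MTR4 KD libraries, without overlap (0.13, adjusted p = 0.289). Its partner subunit HADHA was at 344 to 379 CPM in control and at 337 to 405 CPM in MTR4 KD libraries, which overlapped (0.09, adjusted p = 0.647). ECHS1, the short-chain hydratase, HADH, the short-chain hydroxyacyl-CoA dehydrogenase, and ACAA2, the thiolase of the matrix, had values of 0.13, 0.03 and 0.03. HADHA and HADHB are read in opposite directions, with 306 bases between their starts (26244632 and 26244939 on chromosome 2), so their windows share the 194 bases at chr2:26244689-26244882, shown on the plus strand because a single stretch of DNA lies before both subunits. None of the 4 motifs is in it, and no letters are in capitals.
HADHA and HADHB: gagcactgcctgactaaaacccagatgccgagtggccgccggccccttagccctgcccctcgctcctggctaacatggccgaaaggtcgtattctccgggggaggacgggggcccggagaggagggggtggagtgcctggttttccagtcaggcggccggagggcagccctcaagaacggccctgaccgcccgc

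The auxiliary enzymes for unsaturated chains and the electron carriers likewise held no call by edgeR with condition alone, DESeq2 or limma-voom, and none of these 7 genes had an unadjusted p under 0.05 in edgeR. The isomerases ECI1 and ECI2 had log2 fold changes of 0.08 and 0.02 and the reductases DECR1 and DECR2 of 0.19 and 0.15, all with overlapping groups. ETFA and ETFB, the subunits of the flavoprotein that takes electrons from the dehydrogenases, had values of 0.05 and 0.12. ETFDH, which passes these electrons to ubiquinone, was at 39.3, 37.4 and 38.4 CPM in control and 42.7, 43.0 and 39.6 CPM in MTR4 KD libraries, groups that just did not overlap (0.12, adjusted p = 0.341).

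Of the 4 acyl-CoA synthetases, which activate fatty acids for oxidation or for lipid synthesis, 2 stood on the other side. ACSL3 and ACSL5 were called lowered (50%, against 2.12% of all tested genes). All 4 had a lower mean in MTR4 KD (median log2 fold change -0.20), but ACSL1 and ACSL4 were nearly level (-0.02 and -0.00). ACSL3, the enzyme of the endoplasmic reticulum and lipid droplets (chromosome 2, 222861036 to 222944639), was at 176.8, 174.9 and 175.9 CPM in control and at 135.3, 129.8 and 142.1 CPM in MTR4 KD libraries. The controls were nearly identical and all MTR4 KD libraries lower, and ACSL3 fell by 22.8% (log2 fold change -0.37, SE 0.0588, adjusted p = 0.0182). ACSL5, found on mitochondria and endoplasmic reticulum (chromosome 10, 112374116 to 112428376), was at 26.1, 26.8 and 27.9 CPM in control and at 18.4, 20.3 and 17.4 CPM in MTR4 KD libraries. Again no library crossed over, and ACSL5 fell by 30.5% (log2 fold change -0.52, SE 0.0823, adjusted p = 0.0182).

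Within the sets of more and fewer non-unique reads ACSL3 differed by -0.31 and -0.40 and ACSL5 by -0.63 and -0.47 on the log2 scale. The call of ACSL3 was lost without control replicate 1 (adjusted p = 0.107), control replicate 3 (0.0933), MTR4 KD replicate 1 (0.131) or MTR4 KD replicate 2 (0.116). That of ACSL5 was lost without the same libraries (0.0858, 0.0997, 0.115 and 0.053 in that order). ACSL1, the main synthetase of hepatocytes, was at 25.3 to 32.1 CPM in control and 25.6 to 29 CPM in MTR4 KD libraries (-0.02, adjusted p = 0.927), and ACSL4, which prefers arachidonic acid, at 393 to 467 against 406 to 438 CPM (-0.00, adjusted p = 0.991). The sign of ACSL1 turned without control replicate 2 (0.08) or MTR4 KD replicate 3 (0.03). That of ACSL4 turned without these libraries (0.07 and 0.03), with total counts in place of TMM (0.01) and, at values that round to 0, with limma-voom and with the replicate number as a block. ACSL3 and ACSL5 stayed lower in every alternative run.

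For uptake and binding, FABP1 was at 118.8, 149.2 and 107.7 CPM in control and at 99.5, 103.3 and 98.4 CPM in MTR4 KD libraries. The controls were spread widely and lay above all MTR4 KD libraries, but the difference did not pass the test (log2 fold change -0.32, SE 0.118, adjusted p = 0.208). It was -0.20 within the set of more and -0.56 within that of fewer non-unique reads. The fatty acid translocase CD36 had 10 to 35 reads per library and overlapping groups (0.89, adjusted p = 0.38).

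The thioesterases ACOT1 and ACOT2, which split acyl-CoA back to fatty acid in cytosol and mitochondria, are close copies and neighbours on chromosome 14, so reads can be assigned to either or to neither. ACOT1 was at 14.3, 21.2 and 17.1 CPM in control and 27.0, 25.6 and 20.5 CPM in MTR4 KD libraries. ACOT2 was at 44.8, 38.3 and 50.4 CPM against 49.6, 50.1 and 61.7 CPM. In both genes the groups overlapped (log2 fold changes 0.47 and 0.28, adjusted p = 0.181 and 0.297), and control replicate 2 was the highest control for ACOT1 and the lowest for ACOT2.

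Of the 3 regulators tested, none was called by edgeR with condition alone, DESeq2 or limma-voom, and 2 had an unadjusted p under 0.05 in edgeR. PPARA was at 70.8, 77.9 and 70.6 CPM in control and 91.6, 93.3 and 80.5 CPM in MTR4 KD libraries, which did not overlap (log2 fold change 0.28, SE 0.0795, adjusted p = 0.123). CREB3L3, a liver transcription factor released from the endoplasmic reticulum in fasting, was lower in every MTR4 KD library, at 67.8, 74.3 and 76.1 CPM against 89.6, 78.5 and 97.8 CPM in control (-0.28, SE 0.0935, adjusted p = 0.165). PPARGC1A, the gene of PGC-1α, was at 10.5 to 14.3 CPM in control and 13.0 to 18.2 CPM in MTR4 KD libraries, which overlapped (0.34, adjusted p = 0.297). PPARA and CREB3L3, partners in the fasting response, thus had mean differences of opposite sign, neither past the threshold.

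When the library set was added to the model as a covariate, the 4 called genes stayed called and 12 more members passed, with a median log2 fold change of 0.11 over the 37. In this fit 12 members (32.4%) were raised, against 9.43% of all tested genes, and 4 (10.8%) were lowered, against 10.8% of all tested genes. The genes raised in this fit but not in the one without the covariate were the carnitine shuttle genes CPT1A (0.22, adjusted p = 0.00235), CPT2 (0.26, 0.0341) and SLC25A20 (0.29, 0.00353), the dehydrogenase ACADM (0.21, 0.00554), the peroxisomal SCP2 (0.19, 0.00795), ACAA1 (0.22, 0.00702) and PEX11A (0.25, 0.0159), the thioesterases ACOT1 (0.35, 0.00539) and ACOT2 (0.38, 0.000313), and PPARA (0.22, 0.00257). FABP1 (-0.38, 0.00145) and CREB3L3 (-0.22, 0.0137) were likewise lowered only once the covariate was added. All 16 genes had the same sign within both sets, which this fit favours because it pools the differences within sets. Over all 37 members, 24 were higher and 8 lower in MTR4 KD within both sets. The sign was thus the same in both sets for 32 of 37 members, and for 12271 of all 18075 tested genes. The other 5 members had opposite signs in the sets of more and fewer non-unique reads, namely HADHA (-0.04 and 0.07), ACAA2 (-0.14 and 0.01), DECR2 (-0.06 and 0.42), ETFB (-0.09 and 0.13) and ACSL4 (0.02 and -0.11). The sign of the difference turned with the covariate for ACADS (0.03), ACAA2 (-0.06), ECI2 (-0.07) and ETFA (-0.04), none of which was called in either fit. This covariate was chosen with earlier results of these data known, and each set holds a single library of one condition.

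**Figure D4:**
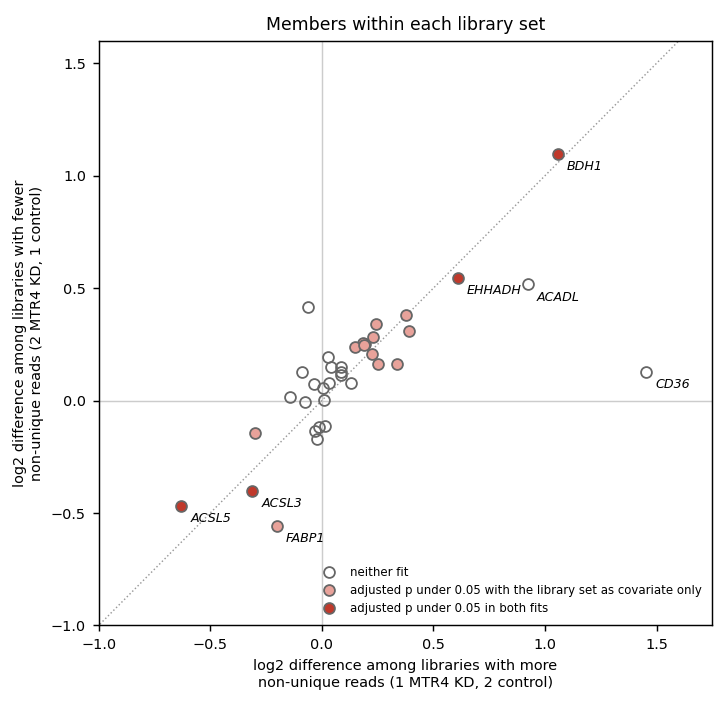
Log2 difference between MTR4 KD and control within the libraries with more (horizontal axis) and with fewer non-unique reads (vertical axis) for the 37 tested genes, with the dotted line marking equal values. Filled points passed an adjusted p under 0.05 in both fits (red) or with the library set as covariate only (pink). All 16 of these lie in the quadrants where both sets have the same sign, which the fit with the covariate favours.

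The other lists of the pathway showed a similarly uneven picture. Of 49 other genes of fatty acid oxidation, 46 were tested, 3 rose and 1 fell (8.7% called, against 3.6% of all tested genes), with a median log2 fold change of 0.10. DESeq2 called 6 raised and 4 lowered (21.7%, against 7.54% of all tested genes), and the fit with the library set as covariate 10 raised and 5 lowered (32.6%, against 20.2%). Those raised were CROT, the carnitine octanoyltransferase of peroxisomes (0.58, adjusted p = 0.00921), ACADSB, a dehydrogenase of branched chains (0.34, 0.0495), and PECR, the peroxisomal enoyl-CoA reductase (0.27, 0.0466). FABP5, a fatty acid binding protein, fell (-0.70, 0.0096). Each of these calls was lost when some single library was left out. Without control replicate 1 or 3 or MTR4 KD replicate 1 or 2, the calls over all genes also fell, from 650 to between 137 and 183. CROT was not called without control replicate 1 or 3 or MTR4 KD replicate 1 or 2 (adjusted p up to 0.0652), and FABP5 not without control replicate 1 or MTR4 KD replicate 2 (0.0545 and 0.0624). ACADSB stayed called only without control replicate 2 (adjusted p up to 0.217 without the others) and was lost with total counts in place of TMM (0.0517), with limma-voom (0.0522) and without the filter (0.0541). PECR was lost whichever of the 6 libraries was left out (0.0655 to 0.232) and without the filter (0.108).

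A list of PPAR partners and targets, not confined to PPARα, had 23 tested genes with a median of 0.02. KLB, the co-receptor for FGF21, rose (0.54, adjusted p = 0.0107) and PDK4, the kinase that restrains pyruvate dehydrogenase, fell (-0.45, 0.0122). These 2 calls were 8.7%, against 3.6% of all tested genes. Both calls were lost without control replicate 1 or 3 or MTR4 KD replicate 1 or 2, with adjusted p-values up to 0.0735 and 0.0934. DESeq2 called 1 raised and 2 lowered (13%, against 7.54% of all tested genes). With the library set as covariate, 4 were raised and 3 lowered (30.4%, against 20.2%). Of 13 tested genes of fatty acid synthesis, SCD, the stearoyl-CoA desaturase, fell (-0.39, adjusted p = 0.0435), and the median was -0.08. This was 7.69% called, against 3.6% of all tested genes. The call of SCD was lost whichever of the 6 libraries was left out (0.0526 to 0.154) and with total counts in place of TMM (0.0539). DESeq2 called 3 of the 13 lowered (23.1%, against 7.54% of all tested genes). With the library set as covariate, 2 were raised and 4 lowered (46.2%, against 20.2%). No gene of the 15 for peroxisome biogenesis was called by edgeR with condition alone, DESeq2 or limma-voom, 5 having an unadjusted p under 0.05 in edgeR. Of these 15 genes, 11 had a higher and 4 a lower mean (median 0.09), against 9234 and 8841 of all 18075 tested genes. With the library set as covariate, 4 of them were raised and 2 lowered (40% called, against 20.2% of all tested genes).

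Glycolytic enzymes were set beside the oxidation genes. Of the 20 tested and reported here, 9 fell (45%, against 2.12% of all tested genes). A lower mean in MTR4 KD was seen for 19, against 8841 of all 18075 tested genes. Their median log2 fold change was -0.38 against 0.13 for the oxidation genes. With the library set as covariate, 15 of the glycolytic enzymes (75%) were lowered, against 10.8% of all tested genes. The per-library median was -0.36, -0.40 and -0.49 in MTR4 KD replicates 1 to 3 and between -0.02 and 0.02 in the controls, so that here, unlike for the oxidation genes, the groups were separate. The largest falls among these were those of the aldolase ALDOC (-1.75, adjusted p = 0.000684), the enolase ENO2 (-1.32, 0.00122) and the phosphofructokinase PFKP (-1.23, 0.000544). Both lists come from the same 6 libraries, and no test of the difference between lists was made.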

How the data were processed

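RNA-seq libraries of PLC/PRF5 cells (3 control, 3 MTR4 KD) were analysed from the read count per Ensembl gene, which the authors deposited raw and without normalization. The submitters' processing notes name HISAT2 2.1.0, HTSeq, DESeq2 and GRCh38. The strand setting of the counting is not given in the sources used here, and reads without a unique alignment were not counted on genes. The class entries that name no gene were left out of library sizes, those without a unique alignment being 14.8% to 37.5% of all entries per library. Symbols were taken from GENCODE, as lifted to GRCh37 (56959 of 60675 genes, 42395 with a symbol), and positions and promoters from RefSeq GRCh38.p14.

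Genes were kept by filterByExpr (minimum count 10), scaled by TMM and tested with edgeR 4.0.16 (R 4.3.3, limma 3.58.1), with the quasi-likelihood test on condition alone and p-values adjusted by Benjamini-Hochberg over all 18075 genes. CPM are TMM-scaled, and SE is that of the log2 fold change. DESeq2 1.42.0 and limma-voom served as alternatives, and Python 3.11.15, pandas 2.3.3 and matplotlib 3.10.9 for tables and plots. The members, the other lists and the library sets (over or under 30% non-unique reads) were chosen with earlier results of these data known. Values are printed for every library for called members and for uncalled members whose groups do not overlap, and for a few others chosen after their values were seen (CPT1A, CPT2, ACOT1, ACOT2). Of each other list at most 3 called genes per direction are named. A list of ketone body genes and 1 gene of the glycolytic list are not reported here, and the counts and medians of the latter leave that gene out. The alternatives were other scalings, filters and tests, a replicate block, the library set as covariate, thinned counts, a fold threshold and each library left out. The procedure was also run on simulated counts without library sets, which cannot show how it performs where such sets exist. Replicate numbers were not taken as pairs.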

Additional observations from a re-analysis of the deposited data

How the results depend on the processing

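Across the scalings, filters, limma-voom and thinned counts, the number of called members stayed within 1.5 times that reported, as did the number of all called genes, and no member changed direction past the threshold under any alternative run. DESeq2's Wald test called 1363 genes in place of 650, and 6 members, with SLC25A20 and ACAA1 (adjusted p = 0.0442) added. With the library set as covariate 3649 genes and 16 members were called. The requirement of a 2-fold change left 1 member, BDH1. Leaving out each library in turn gave 137 to 803 called genes, 1 to 5 called members and a median log2 fold change of the members between 0.11 and 0.17. Without control replicate 1, control replicate 3, MTR4 KD replicate 1 or MTR4 KD replicate 2, only BDH1 was called among the members (1 of 37) and 164, 183, 163 and 137 genes in all. Without MTR4 KD replicate 3, 5 members were called, SLC25A20 being added. The causes were not tested.

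With the replicate number as a block, 857 genes and 5 members were called, SLC25A20 being added (adjusted p = 0.0336). Outside the members, the block ended the calls of PECR (0.0561), ALB (0.0589) and KRT18 (0.0629). Deviations from the group means correlated by -0.24, 0.32 and 0.35 between libraries 1, 2 and 3 of the same number, and MTR4 KD replicate 1 correlated best with control replicate 2 (0.36), so the numbers were not taken as pairs. Correlations were positive within a library set and negative between sets, so they cannot tell whether libraries of the same number were paired.

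With 3 libraries per group an exact permutation test of a single gene cannot give a p below 0.1, so single genes rest on the spread shared across genes in edgeR's model. The biological coefficient of variation was 0.175 with condition only and 0.0573 with the library set. Counting error limits ACADL, CD36 and FGF21. Reads shared with near copies were not resolved: HADHA has 2 named pseudogenes and SLC25A20, HADHB, ACAA2 and ACSL3 have 1 each. Exons of other genes cover 29.8% of the exonic bases of ECI2, 14.3% of DECR2, 12.4% of CPT2 and 11% of ACADM.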

Other observations

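Since ACOT1 and ACOT2 are close copies, their reads were also summed. Of the 50-base words of their canonical transcripts, 51.9% of those of ACOT1 are found in ACOT2 and 54% of those of ACOT2 in ACOT1. The sum of both genes was 59.1, 59.5 and 67.5 CPM in control replicates 1 to 3 and 76.6, 75.7 and 82.3 CPM in MTR4 KD replicates 1 to 3, so that, unlike for either gene alone, the groups did not overlap. The share of ACOT1 in the sum was 24.2%, 35.7% and 25.4% in the controls and 35.2%, 33.8% and 25.0% in MTR4 KD libraries. It was higher in each of the 3 libraries with fewer non-unique reads (control replicate 2, MTR4 KD replicates 1 and 2) than in any of the other 3. The sum was computed after the values of the single genes were seen, and it was not tested.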
